A study of Saccharomyces cerevisiae with 8 samples.

Results

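The iron uptake regulon was taken as 10 genes of budding yeast: the high-affinity iron uptake pair FET3 and FTR1, the cell wall mannoproteins FIT1, FIT2 and FIT3, the siderophore transporters ARN1, ARN2, SIT1 and ENB1, and the heme oxygenase HMX1. They were found by symbol among 6696 counted gene regions, and all 10 were among the 5855 genes that passed the filter on low counts and were tested. Expression was measured by RNA sequencing of total RNA in 8 libraries of the W303 laboratory background. The 4 groups were grr1-deficient cells at 4 h, grr1-deficient cells at 0 h, wild-type (WT) cells at 4 h and WT cells at 0 h of tunicamycin, with 2 biological replicates in each. All groups were grown in synthetic complete medium with 2% glucose at 30 °C to an OD600 of 0.2, and the drug was used at 1 µg/ml. Tunicamycin blocks N-linked glycosylation and so stresses the endoplasmic reticulum. Grr1 is the substrate-binding F-box subunit of an SCF ubiquitin ligase. The labels give neither how the deficiency was made nor whether it is 1 clone. Untreated cultures taken at 4 h were not analysed here, so drug and time in culture cannot be told apart.

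Budding yeast takes up iron by a pair of routes. In the reductive route, ferric iron is reduced at the cell surface by Fre reductases, and the multicopper oxidase Fet3 reoxidises the ferrous iron as it passes through the permease Ftr1. Fet3 and Ftr1 leave the endoplasmic reticulum as a complex, and Fet3 is a heavily N-glycosylated protein. In the other route, transporters of the Arn family take up ferric siderophores, iron chelators made by other microbes, which the Fit mannoproteins help to hold in the wall. When iron is short, the transcription factors Aft1 and Aft2 bind a short promoter motif and raise these genes together with HMX1, whose product breaks down heme.

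The full-length Aft motif, searched only in the form TGCACCC on either strand, lay within 500 bases before the start codon of 10 of the 10 genes. It was found in 140 of 6000 nuclear protein-coding genes searched the same way (2.33%). The 10 genes were listed as targets of factors that bind this motif, so the contrast is a description and not a test. The shorter core CACCC, which lies inside the full motif, was in 2007 of them (33.5%) and also in 10 of the 10. The copy nearest each start codon is shown because it is the promoter feature that these genes share, so that its surroundings can be compared. The windows come from the RefSeq R64 genome of strain S288C, not of W303, and each is printed 5′ to 3′ on the strand that reads TGCACCC, which is in capitals.
FET3: atcttcaaaagTGCACCCatttgcaggtgc
FTR1: gcgtagatgaaTGCACCCgatttctaagtt
FIT1: attcattttttTGCACCCtttcctagaact
FIT2: gctaattatacTGCACCCagttagattcgt
FIT3: ccccattttttTGCACCCtttcctagaatg
ARN1: atttatcaaaaTGCACCCataaaagcaggt
ARN2: gaactaagaacTGCACCCattttctgattg
SIT1: acgaaccagatTGCACCCtcaaatgtgttc
ENB1: cggcttacaatTGCACCCctctgtggcttt
HMX1: tctagtaaactTGCACCCgcacctgttaga
These windows are chrXIII:388560-388589 (plus strand) for FET3, chrV:461897-461926 (minus) for FTR1, chrIV:1505065-1505094 (plus) for FIT1, chrXV:1059388-1059417 (minus) for FIT2 and chrXV:1061222-1061251 (plus) for FIT3. For the transporters they are chrVIII:21213-21242 (minus) for ARN1, chrVIII:10643-10672 (plus) for ARN2, chrV:27457-27486 (minus) for SIT1 and chrXV:21430-21459 (minus) for ENB1, and for HMX1 chrXII:554111-554140 (plus).

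The windows of FIT1 and FIT3 were identical at 25 of 30 bases, although the genes lie on chromosomes IV and XV, and no other pair of windows shared more than 18. These counts include the bases of TGCACCC, which match in every pair by construction, and the least alike pair shared 9. FIT2 held 4 full-length motifs, FTR1, FIT1, FIT3 and ENB1 held 2 each, and FET3, ARN1, ARN2, SIT1 and HMX1 held 1. The nearest motif was 125 to 254 bases from the start codon in 8 genes. In ARN2 and HMX1 it was 441 and 445 bases away. A match of letters is a description and does not show that a factor binds there.

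**Figure D1:**
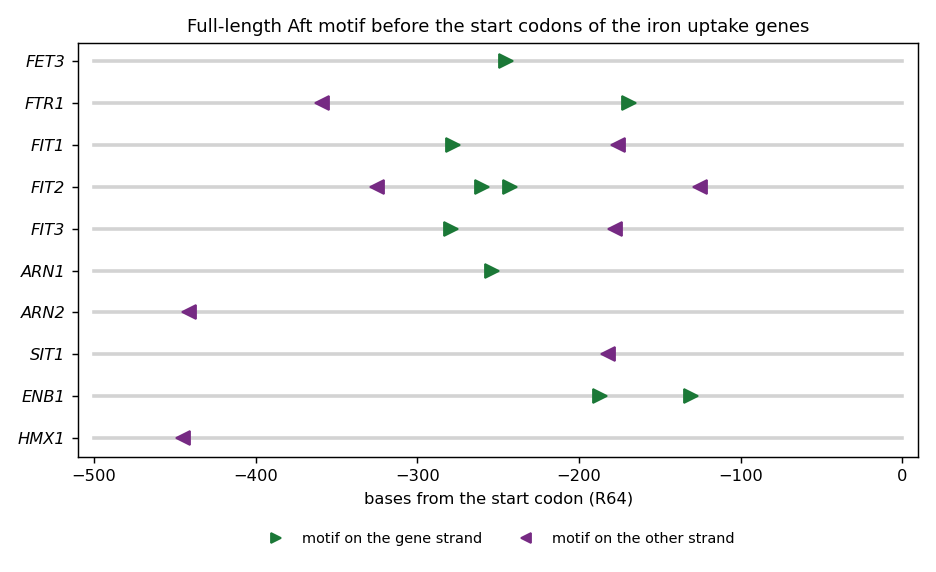
Position of each TGCACCC match in the 500 bases before the start codon of the 10 iron uptake genes, in bases from the start codon on the x axis. Arrowheads give the strand relative to the gene, and the ARN2 and HMX1 matches, at 441 and 445 bases, are the farthest from the start codon.

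The libraries held 4885844 to 12380049 reads in genes. GRR1 itself had 6 and 12 reads in grr1-deficient cells at 4 h and 2 and 3 at 0 h, against 1179 to 1829 in the 4 WT libraries, so the counts matched the genotype labels. Both libraries of grr1-deficient replicate 2 stood apart in the reading frames of the mitochondrial genome, counted without Q0092. These held 100 of the gene reads at 4 h and 192 at 0 h, at most 0.00393%. They held 10.8% to 13.4% in grr1-deficient replicate 1 and 1.72% to 5.03% in WT. The mitochondrial frame Q0092 went the other way, with 94706 reads at 4 h and 18668 at 0 h in grr1-deficient replicate 2. It had 258 and 144 reads in grr1-deficient replicate 1 and 3 to 12 in the WT libraries. Values from fits without both libraries of either grr1-deficient replicate are given where they changed a call. The part of the mitochondrial difference in them was not tested. Values are library-scaled counts (CPM), made by edgeR's TMM method, and tests are edgeR's quasi-likelihood F test on counts over all genes. Fold changes are log2 values with a standard error (SE), and a gene was called at a Benjamini-Hochberg adjusted p below 0.05. TMM assumes that most genes do not change. Scaling by total counts moved the median of all genes by 0.74 in the WT time comparison, -0.69 in the genotype difference in response, 0.41 between genotypes at 0 h and -0.28 at 4 h, so calls that this ends are named. In bulk libraries, fewer cells expressing a gene and less RNA per cell cannot be told apart.

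After 4 h of tunicamycin the regulon did not move as a block in WT cells. FET3, FTR1 and the transporters SIT1 and ENB1 fell, HMX1 and the transporter ARN2 rose, and FIT1, FIT2, FIT3 and ARN1 were not called. Thus 4 of the 10 genes were lower and 2 higher, in a comparison in which 65.6% of all tested genes were called, 33.1% lower and 32.5% higher. The share of the regulon that was called was near that background. Both 4 h libraries lay below both 0 h libraries in 6 of the 10 genes and above them in 3, against 43.4% and 45.8% of all genes. The median log2 fold change was -0.94 over the 10 genes and 0.03 over all genes. With total counts scaling 3 were lower and 4 higher, and all-gene calls were 77.7% higher, against 49.6% with TMM.

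In grr1-deficient cells 6 of the 10 genes fell at 4 h and none rose, by edgeR. These were FET3, FTR1, FIT2, FIT3, SIT1 and ENB1. In this comparison 46.0% of all genes were called, 24.5% lower. Both 4 h libraries lay below both 0 h libraries in 6 of the 10 genes and above them in 1, against 34.1% and 35.8% of all genes. The median was -0.95 over the 10 genes and 0.04 over all genes. HMX1 and ARN2, which rose in WT cells, were not called in the grr1-deficient cells.

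**Figure D2:**
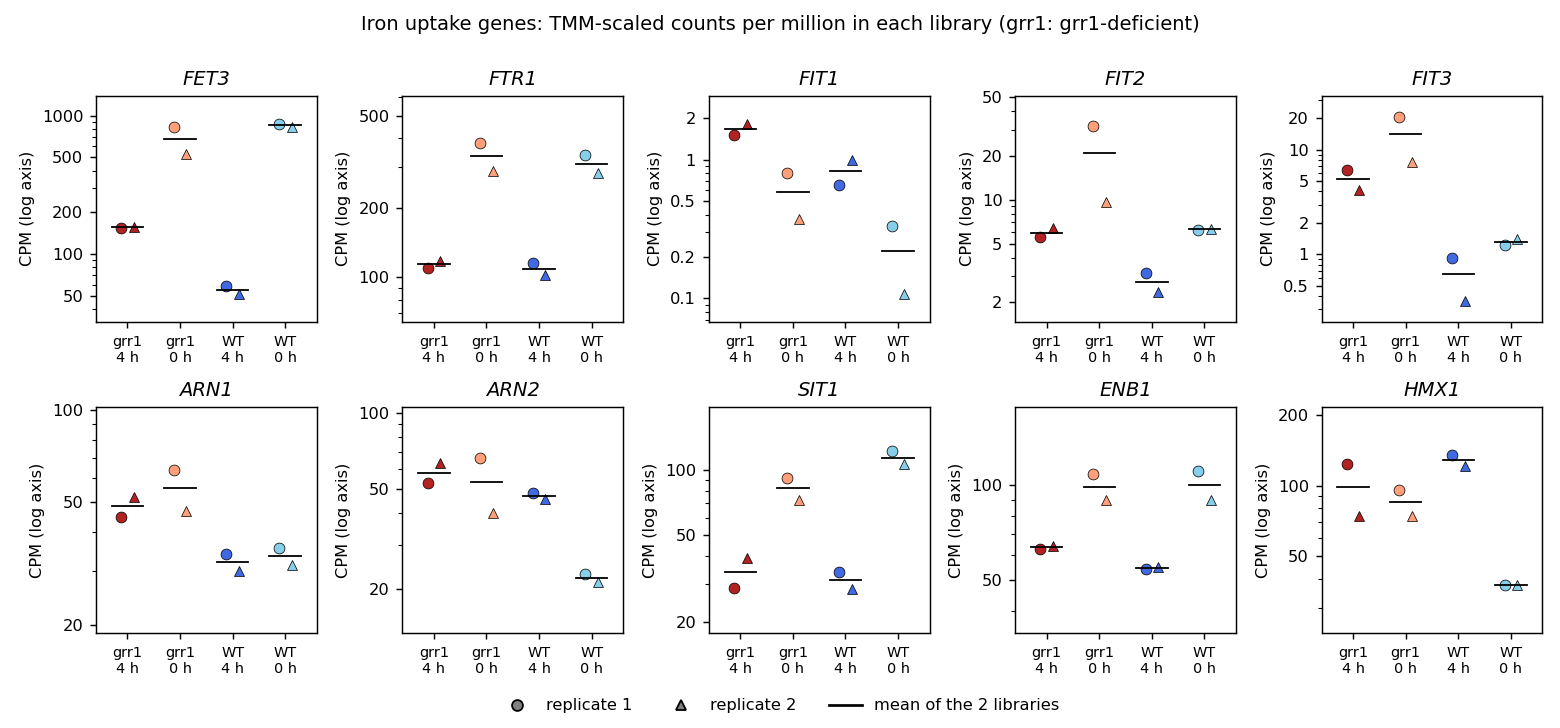
TMM-scaled counts (CPM) of the 10 iron uptake genes in each library, on a log axis, with grr1 standing for grr1-deficient. Points are libraries (circle, replicate 1; triangle, replicate 2) and lines are means of 2; FET3 at 4 h lies near 156 CPM in grr1-deficient cells and near 55.2 CPM in WT cells.

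The reductive uptake pair was the most abundant of the 10 at 0 h in both genotypes, per length of the counted region. FET3 (YMR058W, chrXIII:388822-390732, plus strand), the ferroxidase, had 155 and 157 CPM in grr1-deficient cells at 4 h and 827 and 523 CPM at 0 h. In WT cells it had 58.9 and 51.5 CPM at 4 h and 870.3 and 827 CPM at 0 h. Both 4 h libraries lay below both 0 h libraries in each genotype, and the WT pair at 4 h was the lowest of all. FET3 was 4.33-fold lower at 4 h in grr1-deficient cells (log2 -2.11 ± 0.22 SE, edgeR adjusted p = 0.000203). It was 15.4-fold lower in WT cells (log2 -3.94 ± 0.23 SE, edgeR adjusted p = 1.94e-06). Among the 10 genes, this was the change of greatest size in either genotype.

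The fall of FET3 was smaller in the grr1-deficient cells. The difference in response, grr1-deficient minus WT, was 1.83 ± 0.30 on the log2 scale (edgeR adjusted p = 0.00227). It was called under all 18 alternatives tried, at 1.16 with total counts scaling. FET3 did not pass the test between genotypes at 0 h (log2 -0.33 ± 0.21 SE, edgeR adjusted p = 0.216), where the libraries of the genotypes overlapped. Without grr1-deficient replicate 1 at 0 h that value was -0.72 (edgeR adjusted p = 0.00572), and without both of its libraries -0.70 (edgeR adjusted p = 3.39e-05). At 4 h FET3 was 2.82-fold higher in grr1-deficient than in WT cells (log2 1.50 ± 0.21 SE, edgeR adjusted p = 0.00171).

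FTR1 (YER145C, chrV:460526-461740, minus strand), the permease that pairs with Fet3, had 110.0 and 117 CPM in grr1-deficient cells at 4 h and 382 and 288 CPM at 0 h. WT cells had 115 and 102 CPM at 4 h and 338 and 282 CPM at 0 h. The genotypes overlapped at each time, and the times were apart in each genotype. FTR1 was 2.95-fold lower at 4 h in grr1-deficient cells (log2 -1.56 ± 0.17 SE, edgeR adjusted p = 0.000251) and 2.86-fold lower in WT cells (log2 -1.51 ± 0.17 SE, edgeR adjusted p = 7.19e-05). With total counts scaling the WT value was -0.77 and still called. The difference in response was -0.05 ± 0.23 (edgeR adjusted p = 0.899), and -0.72 with total counts scaling (edgeR adjusted p = 0.0162). The same scaling put the FET3 difference at 1.16.

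The balance of the pair can be read within a library, where the scaling cancels. FET3 over FTR1, as a ratio of reads per kilobase, was 0.992 and 0.943 in grr1-deficient cells at 4 h and 1.52 and 1.28 at 0 h. In WT cells it was 0.361 and 0.354 at 4 h and 1.81 and 2.06 at 0 h. The 2 RNAs were thus near parity in grr1-deficient cells at 4 h, with FTR1 slightly above FET3. In WT cells at 4 h FTR1 exceeded FET3 by a wider margin in both libraries. At 0 h FET3 exceeded FTR1 in every library of both genotypes. The pair held 44.9% and 47.3% of all reads of the 10 genes in grr1-deficient cells at 4 h and 71.6% and 70.4% at 0 h, and in WT cells 35.9% and 35.2% at 4 h and 78.2% and 79.0% at 0 h.

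**Figure D3:**
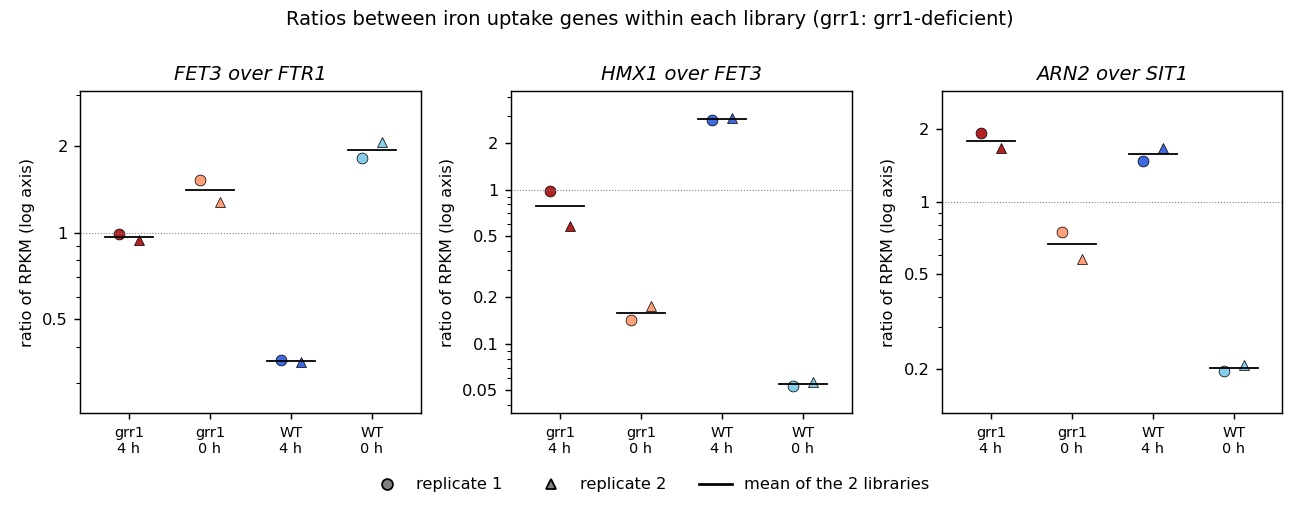
Ratios of reads per kilobase between pairs of iron uptake genes within each library, on a log axis with a dotted line at 1; points are libraries and lines are means of 2, and grr1 stands for grr1-deficient. FET3 over FTR1 is near 1 in grr1-deficient cells at 4 h (0.992 and 0.943) and well below 1 in WT cells at 4 h (0.361 and 0.354).

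HMX1 (YLR205C, chrXII:552724-553677, minus strand), the heme oxygenase that releases iron from heme, ran the other way in WT cells. It had 123 and 73.9 CPM in grr1-deficient cells at 4 h and 96.2 and 74.3 CPM at 0 h. The WT libraries had 135 and 121 CPM at 4 h and 37.6 and 37.9 CPM at 0 h. The grr1-deficient times overlapped, and all 6 other libraries lay above the WT pair at 0 h. HMX1 was 3.40-fold higher at 4 h in WT cells (log2 1.77 ± 0.24 SE, edgeR adjusted p = 0.000283). In grr1-deficient cells the value was 0.20 ± 0.23 (edgeR adjusted p = 0.497). It was 0.33 and called without both grr1-deficient replicate 2 libraries (edgeR adjusted p = 0.0337), and 0.51 without that replicate at 4 h alone (edgeR adjusted p = 0.0445).

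The difference in the response of HMX1 was -1.56 ± 0.33 on the log2 scale (edgeR adjusted p = 0.00814) and was called under all 18 alternatives. At 0 h HMX1 was 2.26-fold higher in grr1-deficient than in WT cells (log2 1.18 ± 0.24 SE, edgeR adjusted p = 0.0045). At 4 h the genotypes overlapped, at -0.38 ± 0.23 (edgeR adjusted p = 0.234), or -0.80 without grr1-deficient replicate 1 at 4 h (edgeR adjusted p = 0.0117). HMX1 over FET3, per kilobase, was 0.978 and 0.580 in grr1-deficient cells at 4 h and 0.143 and 0.175 at 0 h, against 2.83 and 2.89 in WT cells at 4 h and 0.0532 and 0.0564 at 0 h. HMX1 RNA thus outnumbered FET3 RNA only in the 2 WT libraries at 4 h.

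The 4 siderophore transporters, each with its own range of siderophores, differed from one another. SIT1 (YEL065W, chrV:27657-29543, plus strand), a ferrioxamine B transporter, had 28.7 and 39.4 CPM in grr1-deficient cells at 4 h and 91.9 and 72.3 CPM at 0 h. In WT cells it had 33.9 and 28.4 CPM at 4 h and 122 and 106 CPM at 0 h. Every 4 h library lay below every 0 h library. SIT1 was 2.41-fold lower at 4 h in grr1-deficient cells (log2 -1.27 ± 0.19 SE, edgeR adjusted p = 0.00109) and 3.65-fold lower in WT cells (log2 -1.87 ± 0.20 SE, edgeR adjusted p = 4.82e-05). The WT value was -1.12 with total counts scaling and still called. The difference in response was 0.60 ± 0.27 (edgeR adjusted p = 0.116), and 1.00 without both grr1-deficient replicate 1 libraries (edgeR adjusted p = 0.000163).

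ENB1 (YOL158C, chrXV:19491-21311, minus strand), the enterobactin transporter, had 62.9 and 64.2 CPM in grr1-deficient cells at 4 h and 108 and 89.6 CPM at 0 h. WT cells had 54.4 and 54.9 CPM at 4 h and 111 and 89.7 CPM at 0 h. Its times were apart in each genotype and its genotypes overlapped at 0 h. ENB1 fell by 0.64 ± 0.14 on the log2 scale in grr1-deficient cells (edgeR adjusted p = 0.00733) and fell by 0.87 ± 0.14 in WT cells (edgeR adjusted p = 0.000753). With total counts scaling the WT value was -0.13 and no longer called (edgeR adjusted p = 0.417).

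ARN2 (YHL047C, chrVIII:8351-10213, minus strand), a transporter of triacetylfusarinine C, had 52.8 and 63.0 CPM in grr1-deficient cells at 4 h and 66.1 and 40.1 CPM at 0 h. The WT libraries had 48.1 and 45.5 CPM at 4 h and 23.0 and 21.3 CPM at 0 h. The WT pair at 0 h was the lowest of the 8 libraries, and the grr1-deficient times overlapped. ARN2 was 2.11-fold higher at 4 h in WT cells (log2 1.08 ± 0.22 SE, edgeR adjusted p = 0.00267), and 1.82 on the log2 scale with total counts scaling. In grr1-deficient cells it was 0.12 ± 0.22 (edgeR adjusted p = 0.672). That value differed in sign between the replicates: it was -0.35 without both replicate 2 libraries (edgeR adjusted p = 0.0467) and 0.65 without both replicate 1 libraries (edgeR adjusted p = 0.00116).

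The difference in the response of ARN2 was -0.96 ± 0.31 (edgeR adjusted p = 0.0403). This call was lost when any 1 WT library was left out, with adjusted p-values up to 0.146 by edgeR. It was also lost without grr1-deficient replicate 1 at 4 h (-0.84) or at 0 h (-0.53), and was -1.62 with total counts scaling. ARN2 over SIT1, per kilobase, was 1.92 and 1.67 in grr1-deficient cells at 4 h and 0.749 and 0.579 at 0 h, against 1.48 and 1.67 in WT cells at 4 h and 0.197 and 0.209 at 0 h. ARN2 thus exceeded SIT1 in every 4 h library and in none of the 0 h libraries.

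ARN1 (YHL040C, chrVIII:19088-20971, minus strand), a transporter of ferrichrome-type siderophores, had 45.0 and 52.1 CPM in grr1-deficient cells at 4 h and 63.99 and 47.1 CPM at 0 h. In WT cells it had 34.0 and 30.0 CPM at 4 h and 35.5 and 31.3 CPM at 0 h. The times overlapped in each genotype, and every grr1-deficient library lay above every WT library. The change at 4 h was -0.20 ± 0.17 in grr1-deficient cells (edgeR adjusted p = 0.377) and -0.06 ± 0.18 in WT cells (edgeR adjusted p = 0.781). With total counts scaling the WT value turned to 0.69 and was called (edgeR adjusted p = 0.00411). Without both grr1-deficient replicate 2 libraries the grr1-deficient value was -0.53 and called (edgeR adjusted p = 0.00543).

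The FIT genes encode GPI-anchored wall proteins. FIT1, with 1 to 23 reads per library, had the lowest mean per kilobase of the 10 in every group, although it overlapped FIT3 in WT cells at 4 h. FIT1 (YDR534C, chrIV:1503314-1504900, minus strand) had 13 and 23 reads in grr1-deficient cells at 4 h and 6 and 2 at 0 h, against 7 and 11 in WT cells at 4 h and 3 and 1 at 0 h. Both 4 h libraries lay above both 0 h libraries in each genotype. The ratio of 4 h to 0 h was 2.72 in grr1-deficient cells (exact 95% interval 1.24 to 6.77, counting error only) and 3.77 in WT cells (1.24 to 15.3). Neither passed edgeR's test, with adjusted p = 0.0882 in grr1-deficient cells and 0.0563 in WT cells. The WT value was called with total counts scaling (edgeR adjusted p = 0.0102), with mitochondrial genome reads left out (0.0454), and without both grr1-deficient replicate 1 (0.0415) or both replicate 2 libraries (0.0434).

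FIT2 (YOR382W, chrXV:1059531-1059992, plus strand) and FIT3 (YOR383C, chrXV:1060441-1061055, minus strand) are neighbours that face each other across 448 bases. FIT2 had 5.55 and 6.38 CPM in grr1-deficient cells at 4 h and 32.1 and 9.71 CPM at 0 h, against 3.17 and 2.34 CPM in WT cells at 4 h and 6.23 and 6.35 CPM at 0 h. FIT3 had 6.36 and 4.18 CPM in grr1-deficient cells at 4 h and 20.7 and 7.66 CPM at 0 h, against 0.932 and 0.360 CPM in WT cells at 4 h and 1.22 and 1.40 CPM at 0 h. Both genes were highest in grr1-deficient replicate 1 at 0 h, and for each gene 4 h lay below 0 h in both genotypes without overlap. FIT2 fell by 1.82 ± 0.49 on the log2 scale in grr1-deficient cells (edgeR adjusted p = 0.0172), and FIT3 fell by 1.46 ± 0.49 (edgeR adjusted p = 0.0389). With coding-region reads the values were -2.85 for FIT2 (edgeR adjusted p = 0.0294) and -1.47 for FIT3, the last not called (edgeR adjusted p = 0.0542). With only the grr1-deficient groups fitted, neither was called (edgeR adjusted p = 0.0773 for FIT2 and 0.0824 for FIT3). In WT cells the values were -1.19 ± 0.54 for FIT2 (edgeR adjusted p = 0.0836) and -1.01 ± 0.74 for FIT3 (edgeR adjusted p = 0.258). For FIT2 in WT cells the authors' deposited table gave -1.20 with an adjusted p of 0.00234, the only one of the 9 genes it lists for which its call differed at 0.05. With only the WT groups fitted, FIT2 was -1.19 and called (edgeR adjusted p = 0.000634). By DESeq2 it was -1.21 and called (DESeq2 adjusted p = 0.0341). It was -1.22 without both grr1-deficient replicate 2 libraries and -1.19 without both replicate 1 libraries, and was called in each.

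Both grr1-deficient calls rested on the high library. With both grr1-deficient replicate 1 libraries left out, the values were -0.61 for FIT2 and -0.88 for FIT3. Without grr1-deficient replicate 1 at 0 h the values were -0.71 for FIT2 (edgeR adjusted p = 0.102) and -0.57 for FIT3 (edgeR adjusted p = 0.349). The FIT2 call was also lost without either 4 h library of grr1-deficient cells, at adjusted p-values of 0.0894 and 0.0786 by edgeR. The FIT3 call was kept only without grr1-deficient replicate 2 at 0 h among the 8 libraries left out in turn.

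**Figure D4:**
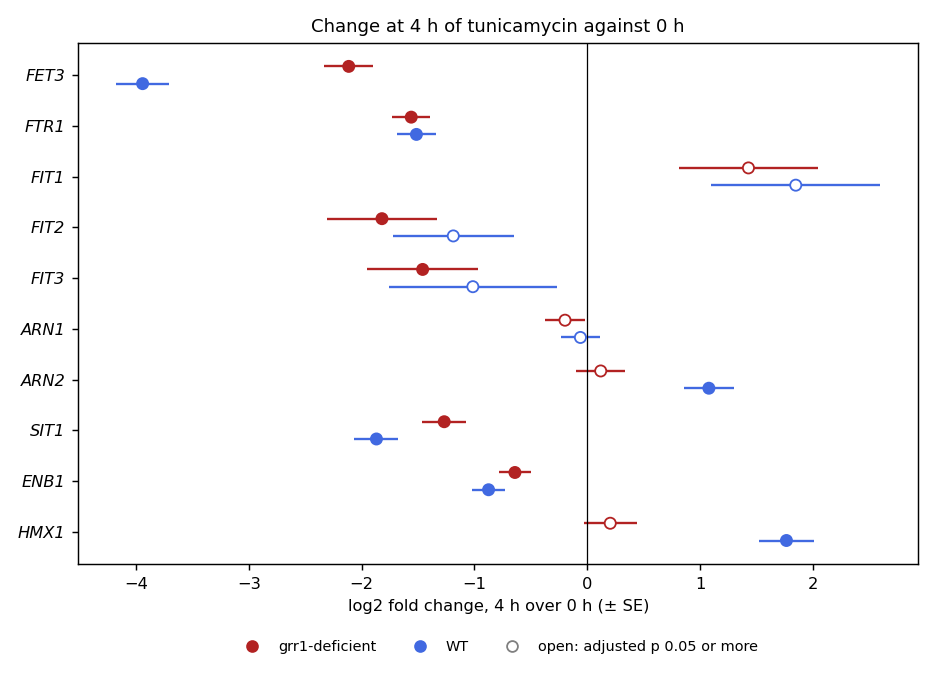
Log2 fold change at 4 h of tunicamycin over 0 h for each gene, in grr1-deficient (red) and WT (blue) cells, with bars of 1 SE from edgeR's fit; open points have an adjusted p of 0.05 or more. FET3 lies at -2.11 in grr1-deficient and -3.94 in WT cells, and HMX1 at 0.20 and 1.77.

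Between responses, 3 of the 10 genes were called: FET3 higher, and ARN2 and HMX1 lower, in grr1-deficient minus WT. Over all genes 37.3% were called, 19.9% higher and 17.4% lower, so the regulon's share was near the background. The median over the 10 genes was -0.28, against 0.03 over all genes. With total counts scaling 5 were called, FTR1 and ARN1 joining the lower ones, and 15.4% of all-gene calls were higher, against 53.4% with TMM. In the fit to all 8 libraries FIT2 and FIT3 passed in grr1-deficient cells only. With only the WT groups fitted, FIT2 also passed in WT cells (edgeR adjusted p = 0.000634). Their differences in response, -0.63 (edgeR adjusted p = 0.531) and -0.45 (edgeR adjusted p = 0.743), did not pass. For FIT2 the value turned on the replicate: it was -1.33 and called without both grr1-deficient replicate 2 libraries (edgeR adjusted p = 0.00513) and -1.23 without that replicate at 0 h alone (edgeR adjusted p = 0.0318). Without both replicate 1 libraries it was 0.59 and not called (edgeR adjusted p = 0.227).

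At 0 h several genes of siderophore uptake and HMX1 were higher in grr1-deficient cells and the reductive pair did not pass the test. FTR1 was 0.11 (edgeR adjusted p = 0.603), but 0.51 and called higher with total counts scaling (edgeR adjusted p = 0.0172) and 0.29 without both grr1-deficient replicate 2 libraries (edgeR adjusted p = 0.0465). FIT2, FIT3, ARN1, ARN2 and HMX1 were called higher, and none of the 10 lower, by edgeR. Over all genes 49.7% were called, 22.5% higher and 27.2% lower. Both grr1-deficient libraries lay above both WT libraries in 6 of the 10 genes and below them in 1, against 34.6% and 42.9% of all genes. The median was 0.96 over the 10 genes and -0.06 over all genes. The difference was greatest for FIT3, which was 10.8-fold higher in grr1-deficient than in WT cells (log2 3.44 ± 0.57 SE, edgeR adjusted p = 0.0017) and was called under all 18 alternatives. Without grr1-deficient replicate 1 at 0 h it was 2.51 on the log2 scale. It rested on 197 reads in the grr1-deficient libraries at 0 h and 24 in the WT libraries. ARN2 was 2.41-fold higher (log2 1.27 ± 0.22 SE, edgeR adjusted p = 0.00213), and 0.83 on the log2 scale without grr1-deficient replicate 1 at 0 h, still called.

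FIT2 was 3.36-fold higher in grr1-deficient cells at 0 h (log2 1.75 ± 0.49 SE, edgeR adjusted p = 0.0193). This call was lost without grr1-deficient replicate 1 at 0 h, where the value was 0.60, and without WT replicate 1 or 2 at 0 h. Without both grr1-deficient replicate 1 libraries the FIT2 value was 0.62, also not called. ARN1 was higher by 0.74 ± 0.18 on the log2 scale (edgeR adjusted p = 0.00861). That was 0.47 without grr1-deficient replicate 1 at 0 h (edgeR adjusted p = 0.0575) and 0.62 without WT replicate 2 at 0 h (edgeR adjusted p = 0.0833), neither called. SIT1 was -0.47 ± 0.19 (edgeR adjusted p = 0.0688) and was called lower under 5 of 18 alternatives, among them without both grr1-deficient replicate 1 libraries (-0.66, edgeR adjusted p = 0.000247) and without both replicate 2 libraries (-0.32, edgeR adjusted p = 0.0366). ENB1 was -0.02 (edgeR adjusted p = 0.936). With total counts scaling ENB1 turned to 0.38 and was called (edgeR adjusted p = 0.0445). In that scaling 76.5% of all-gene calls were higher, against 45.2% with TMM.

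The grr1-deficient libraries at 0 h also differed from each other. All 10 genes were lower in replicate 2 than in replicate 1, by 0.27 (ENB1) to 1.67 (FIT2) in log2 of CPM plus 0.5. The added 0.5 shrinks the difference for genes of low CPM, most of all FIT1. The median size of that difference was 0.504 over the 10 genes and 0.247 over all genes. Replicate 1 was the library with mitochondrial transcripts other than Q0092, and the part of that difference was not tested.

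At 4 h FET3, FIT3 and ARN1 were higher in grr1-deficient than in WT cells, 3 of the 10, and none was lower by edgeR. Over all genes 31.4% were called, 17.2% higher. Both grr1-deficient libraries lay above both WT libraries in 7 of the 10 genes and below them in none, against 35.8% and 36.4% of all genes. The median was 0.46 over the 10 genes and -0.00 over all genes, and all-gene calls were 54.9% higher, against 25.8% with total counts scaling. FIT3 was 7.96-fold higher (log2 2.99 ± 0.63 SE, edgeR adjusted p = 0.0104), from 108 reads in grr1-deficient and 14 in WT libraries. Without WT replicate 2 at 4 h it was 2.46 on the log2 scale and not called (edgeR adjusted p = 0.0923). ARN1 was higher by 0.60 ± 0.17 (edgeR adjusted p = 0.0323). It was 0.32 with total counts scaling (edgeR adjusted p = 0.143), and its call was lost without grr1-deficient replicate 2 at 4 h (edgeR adjusted p = 0.14) or without any 1 WT library (edgeR adjusted p = 0.0604 to 0.205). FIT2 at 1.12 was not called (edgeR adjusted p = 0.144), but it was called without both grr1-deficient replicate 1 libraries (1.21, edgeR adjusted p = 0.00118) and without both replicate 2 libraries (1.01, edgeR adjusted p = 0.0115). Without both replicate 1 libraries ARN2 (0.42, edgeR adjusted p = 0.00352) and SIT1 (0.33, edgeR adjusted p = 0.0424) were also called higher, and HMX1 lower (-0.80, edgeR adjusted p = 3.59e-06).

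**Figure D5:**
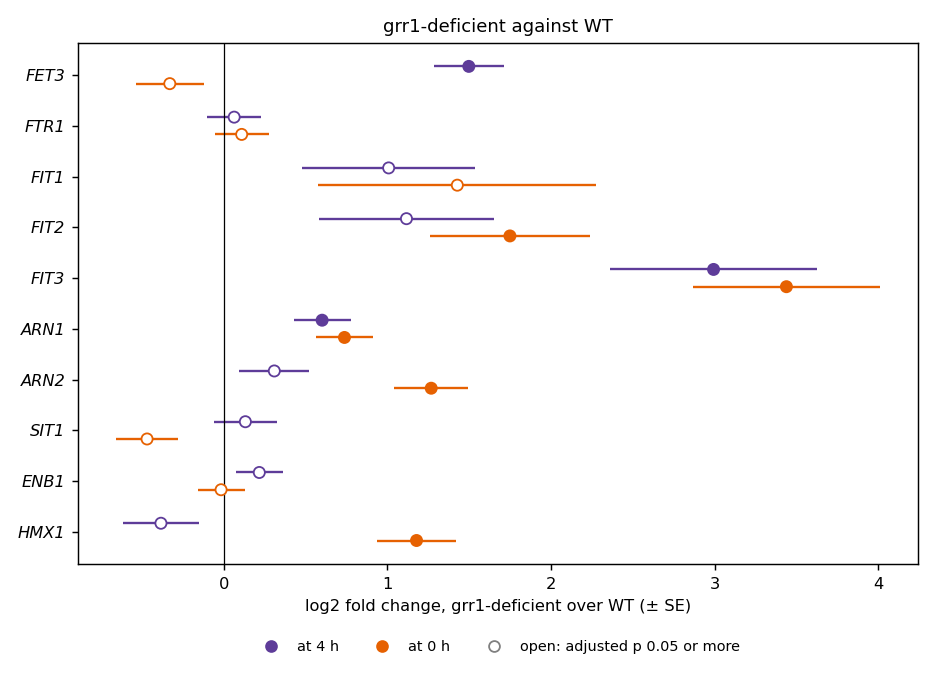
Log2 fold change of grr1-deficient over WT cells for each gene, at 4 h (purple) and 0 h (orange) of tunicamycin, with bars of 1 SE from edgeR's fit; open points have an adjusted p of 0.05 or more. FIT3 is the highest at both times, at 2.99 and 3.44, and FET3 passes the test at 4 h only (1.50, against -0.33 at 0 h).

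The order of the 10 genes by level per kilobase of counted region (RPKM) changed with time. In grr1-deficient cells at 4 h FTR1 (mean 76.2 RPKM) and FET3 (73.6 RPKM) overlapped at the top, followed by HMX1 (57.3 RPKM), while at 0 h FET3 (318.7 RPKM) and FTR1 (225 RPKM) overlapped above HMX1 (49.5 RPKM). In WT cells at 4 h HMX1 (74.6 RPKM) and FTR1 (72.9 RPKM) overlapped above FET3 (26.1 RPKM), while at 0 h FET3 (400.5 RPKM) led FTR1 (208 RPKM) and SIT1 (56.3 RPKM) without overlap. The FIT genes had the 3 lowest means in each group except the grr1-deficient cells at 0 h, where FIT2 (26.1 RPKM) overlapped ARN1 (22.7 RPKM) and ARN2 (27.4 RPKM). The 10 genes together held 0.0627% and 0.0594% of gene reads in grr1-deficient cells at 4 h and 0.154% and 0.126% at 0 h. In WT cells they held 0.0622% and 0.0547% at 4 h and 0.115% and 0.108% at 0 h.

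The remaining iron genes were described from a list of 46 regulators, other Aft targets, iron-sulfur assembly factors, iron-using enzymes and the vacuolar importer CCC1. All but LSO1, which had 1 to 10 reads per library, were tested, 45 in all. At 4 h in grr1-deficient cells 8 were higher and 14 lower, against 21.5% and 24.5% of all genes, or 4 and 9 when only these 4 libraries were fitted. In WT cells 13 were higher and 8 lower, against 32.5% and 33.1% of all genes. They were 28 and 2 with total counts scaling, under which most calls over all genes were higher as well (77.7%), and 8 or 9 were higher without any 1 WT library. Of these calls, 12 of 22 in grr1-deficient cells and 9 of 21 in WT cells held under all 19 alternatives. The form TGCACCC of the Aft motif was in 14 of the 46 (30.4%), and the core CACCC in 32 (69.6%). The 2 full-length matches counted for FRE5 are those of FIT3, in the 508 bases between these genes. BNA2 and VHT1 held the core but not TGCACCC, and other full-length forms were not searched.

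Among regulators, TIS11, which encodes the mRNA-decay factor Cth2 that lowers iron-using transcripts in iron shortage, had 51.7 and 29.5 CPM in grr1-deficient cells at 4 h and 21.2 and 14.9 CPM at 0 h. WT cells had 141 and 133 CPM at 4 h and 14.2 and 10.5 CPM at 0 h. The WT pair at 4 h stood above all other libraries. TIS11 rose by 1.15 on the log2 scale in grr1-deficient cells (edgeR adjusted p = 0.0151) and by 3.46 ± 0.31 in WT cells (edgeR adjusted p = 3.21e-05), a difference of -2.32 ± 0.42 (edgeR adjusted p = 0.00443). The rise in grr1-deficient cells was 0.69 without replicate 1 at 4 h, and it was not called without replicate 2 at 0 h (edgeR adjusted p = 0.0771). AFT1, the main activator of the regulon, was not called in any of the 5 comparisons of the fit to all 8 libraries. Between genotypes at 4 h it was 0.68 (edgeR adjusted p = 0.0521) and was called under 9 of 18 alternatives. Alternatives called it with the sign of the reported value in 6 of 19 for the WT response and 2 of 19 for the grr1-deficient response. They did so in 4 of 18 for the difference in response and 1 of 18 at 0 h. Calls of the opposite sign were not counted.

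Other Aft targets also split. BNA2, the dioxygenase that opens NAD synthesis from tryptophan, rose by 1.92 ± 0.15 in grr1-deficient cells (edgeR adjusted p = 0.000111) and by 5.21 ± 0.17 in WT cells (edgeR adjusted p = 5.61e-07). VHT1, the biotin transporter, fell by 1.89 ± 0.15 in grr1-deficient cells (edgeR adjusted p = 0.000112) and fell by 2.38 ± 0.15 in WT cells (edgeR adjusted p = 3.03e-06). FRE4, a siderophore-iron reductase, fell by 3.29 ± 0.35 in WT cells (edgeR adjusted p = 4.89e-05). Of the 10 iron-sulfur assembly factors, 6 fell and none rose in grr1-deficient cells, where 24.5% of all genes fell and 21.5% rose, among them GRX5, which fell by 1.20 ± 0.15 (edgeR adjusted p = 0.000405) and ISA2, which fell by 1.23 ± 0.19 (edgeR adjusted p = 0.00105). In WT cells, where 33.1% of all genes fell and 32.5% rose, 1 assembly factor fell and 2 rose, or 0 and 8 with total counts scaling, and none rose without WT replicate 1 or 2 at 0 h or replicate 1 at 4 h. Of the 10 iron-using enzymes, 2 fell and 1 rose in grr1-deficient cells. SDH1, SDH2, SDH4, RIP1 and CYT1 were not called, which does not show that they were unchanged. Their grr1-deficient libraries at 0 h lay far apart, at 116 and 592 CPM for SDH2 and 135 and 515 CPM for CYT1. In WT cells SDH2 had 299 and 342 CPM at 4 h and 90.4 and 93.3 CPM at 0 h. It was not called in the shared fit (edgeR adjusted p = 0.127). SDH4 in WT cells (edgeR adjusted p = 0.0557) was called under 10 of 19 alternatives. Aconitase, ACO1, fell by 1.42 ± 0.22 in grr1-deficient cells (edgeR adjusted p = 0.00106) and was not called in WT cells (-0.27, edgeR adjusted p = 0.28). At 0 h ACO1 was higher in grr1-deficient than in WT cells (1.23, edgeR adjusted p = 0.00197). Between genotypes at 4 h it was not called (0.09, edgeR adjusted p = 0.781). Ferrochelatase, HEM15, rose in both, by 1.57 ± 0.15 in grr1-deficient cells and 1.49 ± 0.14 in WT cells (edgeR adjusted p = 0.000159 and 2.99e-05).

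Between genotypes at 0 h 15 of the 45 were higher in grr1-deficient cells and 7 lower, against 22.5% and 27.2% of all genes. They were 25 and 1 with total counts scaling, and 10 calls held under all 18 alternatives. Without WT replicate 2 at 0 h the counts were 10 and 4. FRE5, a putative ferric reductase gene that starts 508 bases from FIT3 on the other strand, had 6.24 and 6.07 CPM in grr1-deficient cells at 4 h and 20.3 and 7.47 CPM at 0 h. The WT libraries had 0.373 and 0.180 CPM at 4 h and 1.11 and 0.538 CPM at 0 h. Every grr1-deficient library was above every WT library, as for its neighbour FIT3. FRE5 was higher in grr1-deficient cells by 4.42 ± 0.68 at 4 h (edgeR adjusted p = 0.00249) and 4.08 ± 0.58 at 0 h (edgeR adjusted p = 0.000798). These sizes rested on few WT reads, 6 at 4 h and 15 at 0 h, against 131 and 193 in grr1-deficient cells. FRE2, a surface ferric reductase, was higher by 1.64 ± 0.20 at 4 h and 1.49 ± 0.22 at 0 h (edgeR adjusted p = 0.000821 and 0.000902). MRS4, a mitochondrial iron importer, and ISU1, the iron-sulfur scaffold, were higher at 0 h by 1.29 ± 0.13 and 1.02 ± 0.13 (edgeR adjusted p = 0.000227 and 0.000469). Among genes lower in grr1-deficient cells at 0 h, FRE4 was at -3.47 (edgeR adjusted p = 0.000271). GRX3, HEM15 and FRE1 were lower at 0 h too, at -0.83, -0.82 and -0.82. Those lower at 4 h included TIS11 at -1.76, BNA2 at -0.98 and CTH1 at -0.87 (edgeR adjusted p = 0.00367, 0.00179 and 0.000979). At 4 h 4 of the 45 were higher and 8 lower, against 17.2% and 14.1% of all genes, or 4 and 14 with total counts scaling, and 3 and 4 were lower without WT replicates 1 and 2 at 4 h in turn.

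Likeness across the 8 libraries was taken against the mean profile of the 10 genes, as a description in which the points share their groups. Profiles were in log2 of CPM plus 0.5. Pearson's r with that mean was 0.976 for FIT2, 0.936 for FIT3 and 0.910 for ARN1, but 0.078 for FIT1 and -0.067 for HMX1. The 6 other genes most like it were PET309 (0.968), IZH3 (0.951), BIO5 (0.947), RRT6 (0.945), MIP6 (0.942) and NDE1 (0.937), and 25 genes outside the regulon exceeded 0.9. The mean profile therefore followed FIT2, FIT3 and ARN1 more closely than it followed FET3 (0.634) or FTR1 (0.625).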

How the data were processed

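The authors deposited, per library, raw read counts per gene region with region lengths and length-scaled RPKM. Per the file headers these were made with plastid's counting script from reads of 25 to 100 nt, each placed 25 nt from its 5′ end. Only the counts were tested. No label or header says whether the counter used strand. The deposited comparison tables hold the authors' log2 fold changes, p-values and a test score, and only their log2 fold changes and adjusted p-values are quoted. Tools listed in the submitters' processing notes, with no role given, are STAR 2.7.3a, Bowtie2 2.3.5, cutadapt 2.6 and DESeq2, and the listed genome build is R64.

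FIT1 is not named in the authors' tables and was matched by its identifier through RefSeq. Counts of all genes entered 1 edgeR 4.0.16 fit (R 4.3.3) with 4 groups, TMM scaling, edgeR's default filter on low counts and robust quasi-likelihood dispersion, two-sided. CPM and RPKM in the text were recomputed with TMM. SE is the log2 fold change over the square root of F. The 2 libraries per group are labelled biological replicates. The fit was tested on simulated data: of 100 genes changed by log2 1 in the WT time comparison, over 5855 genes, 67% were called, and 90% at log2 2. It also called 8 unchanged genes. Only 200 genes were changed there, as many up as down, whereas 65.6% were called in the real comparison. The simulation therefore cannot show how scaling or power behave when so many genes change. The 10 genes and the wider list were chosen with earlier results of these data known. The text names all 10, the 6 genes most alike, and genes of the wider list: those discussed are given with values and the other called ones as counts only, which is narrower than the naming rule first written. Alternatives were DESeq2 1.42.0, other scalings, filters and blocks, coding-region reads, and libraries left out; a lone library was then assumed to vary like the others.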

Additional observations from a re-analysis of the deposited data

Results flagged for a closer look

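In 3 of the 10 iron uptake genes the response to 4 h of tunicamycin differed between genotypes by a test of the difference itself (edgeR, grr1-deficient minus WT, log2). FET3 differed by 1.83, having fallen less in grr1-deficient than in WT cells. HMX1 differed by -1.56, with a rise called in WT cells only, and ARN2 by -0.96. For FET3 and HMX1 the call was made under all 18 alternatives, whereas for ARN2 it was made under 11 of them. Mitochondrial transcripts other than Q0092 were nearly missing from grr1-deficient replicate 2. Without both of its libraries the differences were 1.54 for FET3, -1.40 for HMX1 and -1.39 for ARN2, all called. Without both replicate 1 libraries they were 2.21 for FET3, -1.77 for HMX1 and -0.43 for ARN2, the last not called (edgeR adjusted p = 0.0597).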

How the results depend on the processing

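Over 50 values (10 genes in 5 comparisons), recomputed 918 times, 838 stayed on the same side of the threshold, 37 lost a call, 40 gained one and 3 took the opposite sign and were called. Those 3 were ARN1 in WT cells at 4 h (0.69) and ENB1 between genotypes at 0 h (0.38), both with total counts scaling, and ARN2 in grr1-deficient cells without both replicate 2 libraries (-0.35). Counting uncalled values too, the sign differed in 44 recomputed values of 17 results, none of them called in the fit reported, and the uncalled ones were at most 0.59 in size. The cause was not tested. The number of the 10 genes called ranged, with 1 library left out at a time, from 6 to 7 for the WT response, 4 to 6 for the grr1-deficient response, 2 to 4 for the difference in response, 3 to 6 between genotypes at 0 h and 1 to 4 at 4 h. The low ends came without WT replicate 2 at 0 h (3) and without WT replicate 2 at 4 h (1). The difference in response gave 5 with total counts scaling, and the genotypes at 4 h gave 7 without both grr1-deficient replicate 1 libraries, a setting chosen after seeing the data. Over all genes, the grr1-deficient response gave 1642 calls when only its own 4 libraries were fitted, against 2696. With 1 library left out, the difference in response gave as few as 1272, against 2182, and the genotypes at 4 h as few as 553, against 1836. Without both grr1-deficient replicate 1 libraries they gave 3467 and 3562.

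Replicate numbers were not treated as pairing the samples. Deviations of same-numbered libraries, in log2 of CPM plus 0.5, correlated at 0.80 across genes between the grr1-deficient times but at -0.03 between the WT times. Over the 5831 nuclear genes alone the correlations were 0.46 and -0.03. With a replicate block the counts were unchanged, at 6 for each response, 3 for the difference in response, 5 at 0 h and 3 at 4 h. A block nested within genotype gave 7 in WT cells, FIT2 being called (-1.19, edgeR adjusted p = 0.0445); it has no value between genotypes. Fitting only the groups compared has none for the difference in response, which uses all 4. FIT1 and FIT3 had 1 to 13 reads per WT library, which limits their precision.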
